A study of Mus musculus with 2 samples.

Results

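Vcam1, Icam1, Icam2, Sele, Selp and Cx3cl1 encode surface proteins with which endothelial cells catch leukocytes from the blood. They were taken by symbol from the deposited count matrices, where all 6 were found among 32286 features. The series profiled single cells of mouse lung in a model of hereditary hemorrhagic telangiectasia 2, a disorder of fragile and directly connected blood vessels. The cells carried tdTomato, a red fluorescent protein switched on by a Cre recombinase under the VE-cadherin promoter, which is active in endothelium, and were sorted on that fluorescence. There were 2 libraries, 1 labelled aWT and 1 labelled aKO, both from C57BL/6J mice aged 10 to 12 weeks and both positive for the Cre and tdTomato. The labels name no deleted gene, no treatment and no number of animals per library, so no targeted gene could be used to check the label aKO.

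Leukocytes leave the blood in steps. E-selectin (Sele) and P-selectin (Selp) hold them loosely so that they roll, and VCAM-1 (Vcam1) and ICAM-1 (Icam1) then bind leukocyte integrins so that they stop. ICAM-2 (Icam2) is an integrin ligand that resting endothelium carries, and fractalkine (Cx3cl1) is a chemokine that stays tethered to the membrane and binds CX3CR1. Vcam1, Icam1, Sele and Cx3cl1 are textbook targets of NF-kB, the transcription factor that inflammatory cytokines activate, while P-selectin is stored with von Willebrand factor in Weibel-Palade bodies. In lung, leukocytes are also held in the capillaries, where the general capillary cell and the larger aerocyte, the cell that lies at the thin gas-exchange surface, form the wall.

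Promoters of 4 of the 6 genes were found in the RefSeq table (GRCm38.p6), and 3 are shown because these genes are read against the NF-kB list further on. Each runs over the 250 bases before the RefSeq start, on the plus strand, and capitals mark the letters GGNNNTTCC read on either strand. Vcam1 and Icam2 are named only. The Cx3cl1 window, chr8:94771930-94772179, was searched but is not printed, because 171 of its bases lie inside the GENCODE model of the gene, which starts earlier.
Icam1, chr9:21015690-21015939: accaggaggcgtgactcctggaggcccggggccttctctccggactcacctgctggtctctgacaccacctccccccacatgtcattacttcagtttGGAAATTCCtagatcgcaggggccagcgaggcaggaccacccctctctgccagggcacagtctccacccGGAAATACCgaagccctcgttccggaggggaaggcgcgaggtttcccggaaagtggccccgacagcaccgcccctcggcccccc
Sele, chr1:164047984-164048233: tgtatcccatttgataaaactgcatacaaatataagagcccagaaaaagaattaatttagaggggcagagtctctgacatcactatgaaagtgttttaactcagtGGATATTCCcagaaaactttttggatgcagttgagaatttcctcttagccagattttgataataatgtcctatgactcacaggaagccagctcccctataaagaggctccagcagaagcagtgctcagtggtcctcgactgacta
Selp, chr1:164115014-164115263: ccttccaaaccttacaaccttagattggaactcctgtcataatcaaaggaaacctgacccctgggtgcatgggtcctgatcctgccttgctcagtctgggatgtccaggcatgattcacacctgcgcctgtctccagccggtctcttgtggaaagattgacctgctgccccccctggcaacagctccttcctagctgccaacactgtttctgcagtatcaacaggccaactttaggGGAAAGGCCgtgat
The letters stood at 2 places before Icam1, where one of them fits the pattern on both strands, and at 1 place in each window of Sele, Selp and Cx3cl1. Of 32851 promoters of this length, 15.7% hold them. The letters TATAAA, held by 12.4% of promoters, stood in the windows of Sele and Cx3cl1, and GGCGCC, held by 9.59%, in that of Cx3cl1. AGATAA, held by 9.99%, was in none of these windows. A match is a description of the letters and not of binding.

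In the mm10 gene models (GENCODE M21), Vcam1 lies at chr3:116109949-116129688 on the minus strand with 9 exons in its longest coding transcript. Icam1 lies at chr9:21015985-21028817 (plus, 7 exons), 556 bases before Icam4 on the same strand, so reads past its end could be counted for the neighbour. Icam2 lies at chr11:106377656-106388075 (minus, 4 exons) and Cx3cl1 at chr8:94772009-94782427 (plus, 3 exons). Both selectins lie on the plus strand of chromosome 1, Sele at chr1:164048234-164057677 (14 exons) and Selp at chr1:164115264-164150026 (16 exons), 57587 bases apart.

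In aWT 15996 barcodes carried 72270260 unique molecular identifiers (UMIs, each standing for 1 captured RNA molecule), in aKO 11045 barcodes carried 75950364, and 48 barcode sequences occurred in both. After filtering, 14933 aWT and 10386 aKO cells were kept, with medians of 3919 and 5732 UMIs, and 98.2% and 98.9% of them met the endothelial rule. With 1 library a group nothing could be tested between aWT and aKO. Intervals are 95% and cover counting error only, and a gene is called here by size alone, at 50 CPM in 1 library and a 2-fold ratio. CPM is a gene's share of all UMIs of the same cells, in counts per 1000000, and ratios are aKO over aWT. The X-inactivation transcript Xist stood at 3.57 CPM in aWT against 730 CPM in aKO, so sex and label cannot be told apart. The alveolar type 2 gene Sftpc stood at 167 CPM in aWT against 6.54 CPM in aKO endothelial cells, and its part in the results was not tested.

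Cells were placed in 5 endothelial classes by the average of scaled marker levels, from lists that leave out the 6 genes. The classes are ranges of a per-cell score, set at 2 times the next class. General capillary cells numbered 5895 in aWT and 1411 in aKO, aerocytes 2207 and 1068, arterial cells 967 and 883, venous cells 973 and 916, and lymphatic cells 500 and 1632. No class was given to 28.1% of aWT and 42.5% of aKO endothelial cells. In both libraries the 10 leading genes of each class held at least 3 markers of that class and 0 of another. The same markers set the classes, so this is no separate check of them. Some markers were higher in another class than their own: Scn7a (general capillary), Nckap5 (aerocyte) and Nr2f2 (venous) in both libraries, Sox17 (arterial) in aWT and Hmcn1 (general capillary) in aKO. Nckap5 stood at 1025 CPM in aWT aerocytes against 3954 CPM in the highest other class. Markers also differed between the libraries within a class. In venous cells Slc6a2 stood at 2360 CPM in aWT against 378 CPM in aKO, and Amigo2 at 300 and 164 CPM. Vegfc stood at 940 and 937 CPM there and Cpe at 619 and 824 CPM. Whether the venous cells of the libraries are of the same kind was not tested. Cells between 2 and 2.5 times the next class made up 38.0% of aKO general capillary cells, against 17.8% in aWT. Over all general capillary cells the median own score was 0.198 in aKO against 0.394 in aWT, so this class is the least sharp in aKO. In the other classes the cells near that limit made up 2.81% to 19.5%. Scores of the other classes had medians of at most 0.13 within every class. The median depth was 5750 UMIs in aWT and 10329.5 in aKO venous cells, 4747 and 9006 in arterial cells, and 4612 and 5501.5 in aerocytes.

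**Figure D1:**
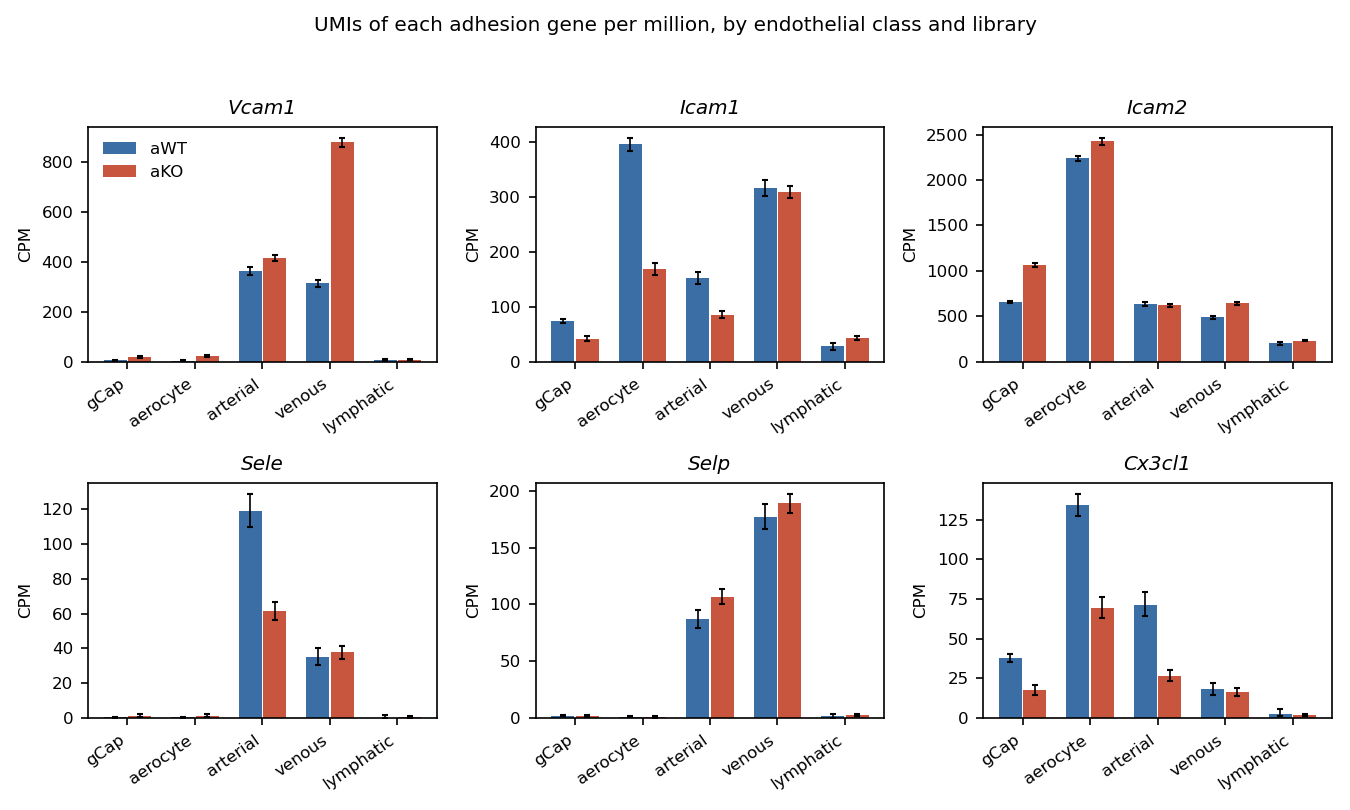
Levels (CPM, vertical axes) of the 6 genes in 5 endothelial classes (gCap is general capillary), with aWT in blue and aKO in red. Bars are sums over the cells of a class in 1 library and error bars are 95% Poisson intervals, and the venous Vcam1 bar of aKO stands at 878 CPM against 313 CPM in aWT.

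Vcam1 was an arterial and venous gene in both libraries, and its largest difference in CPM lay in venous cells. In venous cells it stood at 313 CPM (299 to 328) in aWT and 878 CPM (860 to 896) in aKO, a ratio of 2.81 (2.67 to 2.95). In arterial cells it stood at 361 CPM (345 to 378) and 414 CPM (401 to 428), a ratio of 1.15 (1.08 to 1.21). The order of the leading pair was therefore arterial over venous in aWT and venous over arterial in aKO, with intervals that do not overlap within either library. General capillary cells held 4.68 and 17.1 CPM, aerocytes 4.01 and 22.5 CPM, with ratios of 3.66 (2.81 to 4.77) and 5.59 (3.95 to 8.07) that exceed the venous one at low levels, and lymphatic cells 5.02 and 7.25 CPM. In aWT the lymphatic and general capillary intervals overlapped, as did those of the capillary classes. The aKO aerocyte value rests on few cells, since 1% of the cells held 86.2% of its UMIs and 1 cell held 64, and the thinned share of aerocytes with a UMI was 1.03% in aWT and 1.31% in aKO.

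Over all endothelial cells Vcam1 stood at 79.1 CPM in aWT against 249 CPM in aKO (ratio 3.15, 3.05 to 3.25). Of the 5 genes that reached 50 CPM here (all but Sele), Vcam1 was called as higher, beside 4.60% of the 4591 genes measured, and Cx3cl1 as lower, beside 3.29%. In general capillary cells only Icam1 and Icam2 reached 50 CPM, and neither was called, beside 3.64% of genes called as higher and 2.99% as lower. Vcam1 (ratio 3.66) and Cx3cl1 (0.463) lay below that level there and could not be called. In lymphatic cells only Icam2 reached it and was not called, beside 1.30% of genes called as higher and 1.68% as lower. With the 5 classes weighted equally the log2 ratio of Vcam1 was 0.94 in place of 1.60 (5 CPM added to each level), which is below 2-fold. In venous cells Vcam1 was the only member called, beside 4.44% of genes called as higher there and 3.48% as lower. Sele and Cx3cl1 lay below 50 CPM in venous cells and could not be called. The venous log2 ratio of 1.47 ran from 1.33 to 1.56 over 11 other ways of processing. Cells of no class also held more in aKO, at 165 CPM against 69.7 CPM.

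More venous cells held Vcam1 in aKO, and the cells that held it held more. With every cell thinned to 2000 UMIs, 31.7% (28.7 to 34.8) of aWT and 50.5% (47.2 to 53.8) of aKO venous cells had a UMI, and unthinned 55.0% and 79.6%. Thinned cells with 6 or more Vcam1 UMIs made up 1.21% of aWT and 7.65% of aKO venous cells, and cells with 3 to 5 UMIs 4.06% and 12.0%. Arterial shares went the other way after thinning, at 36.3% (33.1 to 39.5) in aWT and 31.9% (28.8 to 35.2) in aKO with overlapping intervals, against 51.5% and 65.2% unthinned. Among alveolar type 2-like cells, taken as a rough background of free RNA, 0.971% of 103 thinned aWT cells and 0 of 15 aKO cells had a UMI. The share of 0 of 15 allows up to 21.8%. Their median depths before thinning were 15561 and 15397.5 UMIs, more than in the endothelial classes. The same amount of free RNA would be a smaller part of their UMIs, so these shares can understate the background in endothelial cells.

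**Figure D2:**
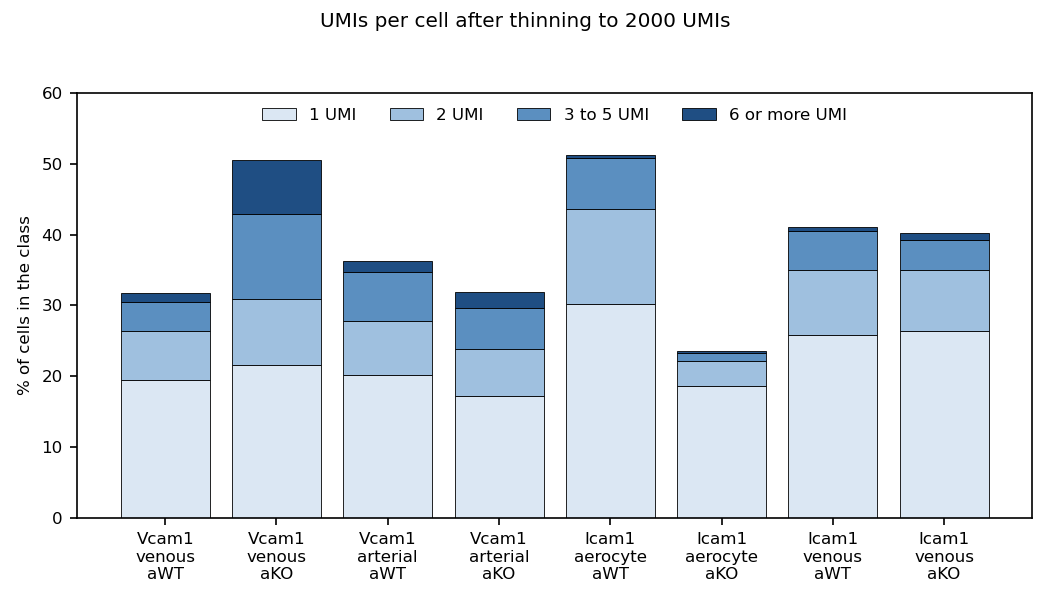
Share of cells (vertical axis, percent) with 1, 2, 3 to 5, or 6 or more UMIs of Vcam1 or Icam1 after thinning to 2000 UMIs per cell, in the class and library named below each bar. The dark top segment is 7.65% in aKO venous cells for Vcam1 and 1.21% in aWT, and the aerocyte Icam1 bars reach 51.3% in aWT and 23.6% in aKO.

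Depth and proliferation differed between the venous cells of the libraries beside Vcam1. Cells with 2 or more of 5 proliferation markers made up 0.617% of aWT and 9.72% of aKO venous cells. In aKO these 89 cells held Vcam1 at 1317 CPM with a median of 17540 UMIs, while the other 827 held it at 794 CPM, against 313 CPM in the corresponding 967 aWT cells. Without cells holding these markers the venous log2 ratio was 1.33. Venous Vcam1 in cells under 4000 UMIs was 248 CPM in aWT against 606 CPM in aKO, in cells of 4000 to 8000 UMIs 327 and 576 CPM, and in deeper cells 309 and 933 CPM. The library intervals did not overlap in any of these depth ranges. Markers of mesothelium and fibroblasts, a list chosen after the data had been seen, summed to 29.6 CPM in aWT against 151 CPM in aKO venous cells. Without cells holding 2 or more of them the venous ratio stayed within the range given above.

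**Figure D3:**
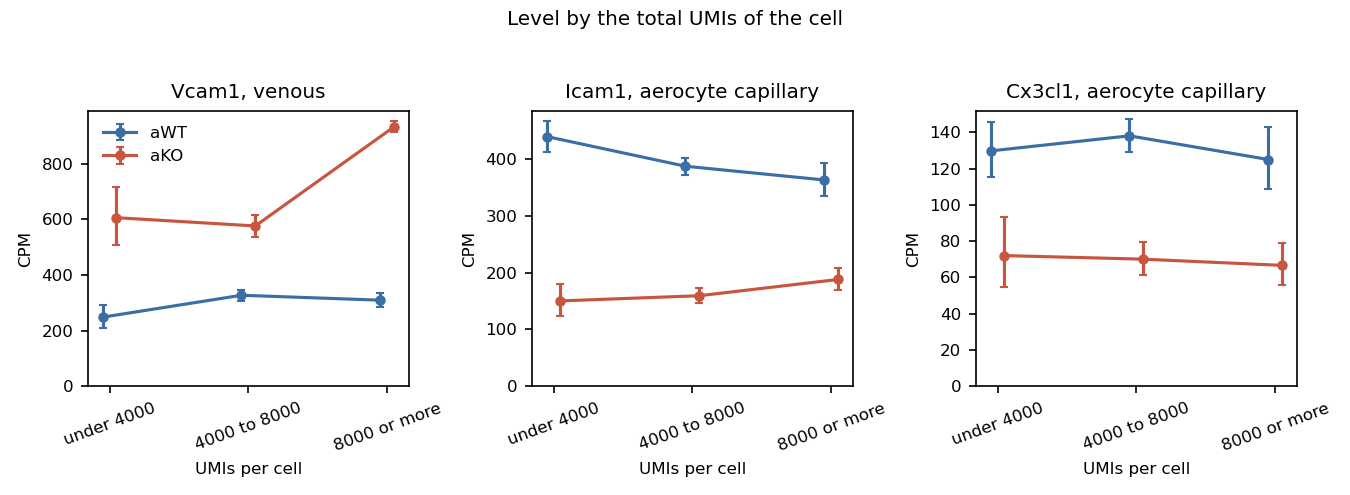
Level (CPM, vertical axes) of venous Vcam1 and of aerocyte Icam1 and Cx3cl1 in cells split by their total UMIs (horizontal axes), with aWT in blue, aKO in red and 95% Poisson intervals. Lines join the depth ranges of 1 library, and aKO lies above aWT for Vcam1 (606 against 248 CPM in the shallowest cells) and below it for Icam1 (150 against 440 CPM).

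Icam1 was highest in aerocytes and venous cells, and it was lower in aKO in the capillary and arterial classes. Aerocytes held it at 395 CPM (383 to 407) in aWT and 168 CPM (158 to 178) in aKO, a ratio of 0.425 (0.397 to 0.455). Arterial cells held 152 and 85.3 CPM (ratio 0.561, 0.507 to 0.621) and general capillary cells 73.5 and 40.9 CPM (0.557, 0.492 to 0.629). Venous cells held nearly the same level in both, 316 and 308 CPM, with a ratio of 0.975 (0.921 to 1.03). Lymphatic cells were lowest in aWT at 27.4 CPM and stood at 42.1 CPM in aKO. The order was aerocyte, venous, arterial, general capillary and lymphatic in aWT with no overlap between neighbours. In aKO it was venous, aerocyte, arterial, lymphatic and general capillary, where the last pair overlapped.

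Among aerocytes only Icam1, Icam2 and Cx3cl1 reached 50 CPM. Of these Icam1 alone was called, beside 1.84% of the 4182 genes there called as lower and 1.70% as higher. Vcam1 (ratio 5.59), Sele and Selp lay below that level in aerocytes and could not be called. After thinning, 51.3% (49.1 to 53.5) of aWT and 23.6% (20.9 to 26.3) of aKO aerocytes had a UMI of Icam1, and unthinned 73.9% and 43.8%. Venous shares were 41.1% and 40.2% thinned, and arterial shares 22.2% and 13.4%. Aerocytes with 2 Icam1 UMIs after thinning made up 13.4% in aWT and 3.54% in aKO. In cells under 4000 UMIs the aerocyte level was 440 CPM in aWT against 150 CPM in aKO, in those of 4000 to 8000 UMIs 388 and 159 CPM, and in deeper cells 364 and 188 CPM.

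The alveolar type 2-like cells do not serve as a background for Icam1, because 25.2% of thinned aWT and 53.3% of the 15 thinned aKO cells had a UMI. Alveolar type 2 markers summed to 158 CPM in aWT against 12.5 CPM in aKO aerocytes, to 176 and 8.02 CPM in venous cells and to 132 and 7.41 CPM in lymphatic cells. Their part in the Icam1 difference was not tested. The aerocyte log2 ratio of -1.21 reached -1.37 at the lowest over the 11 other ways of processing. Over all endothelial cells Icam1 stood at 169 CPM in aWT against 110 CPM in aKO (ratio 0.647, 0.628 to 0.666) and was not called.

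**Figure D4:**
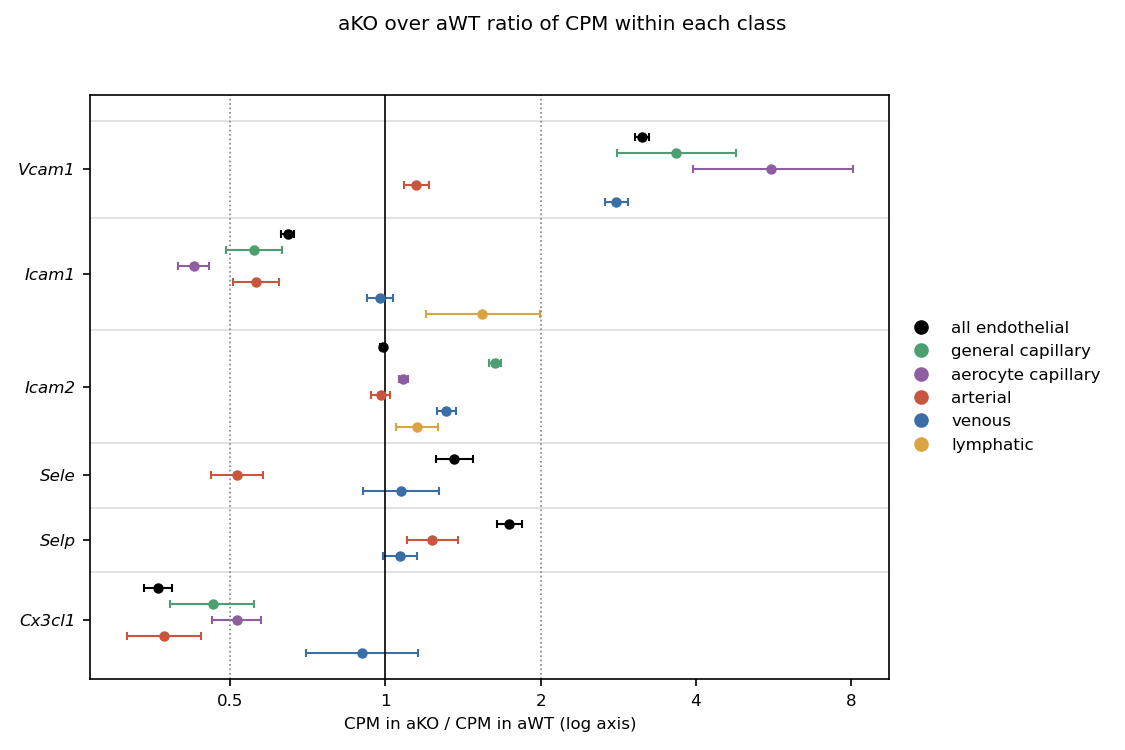
Ratio of CPM in aKO to CPM in aWT (horizontal log axis) for the 6 genes in all endothelial cells and in 5 classes by colour, shown where 1 library reached 15 CPM. Bars are 95% intervals for counting error, dotted lines mark 2-fold either way, and Icam1 runs from 0.425 in aerocytes to 1.54 in lymphatic cells.

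Icam2 was found in every class and lay close to equal between the libraries over the whole. Over all endothelial cells it stood at 882 CPM (875 to 889) in aWT and 872 CPM (865 to 879) in aKO. Aerocytes were highest in both, at 2240 and 2428 CPM (ratio 1.08, 1.06 to 1.11), and 94.4% and 95.9% of their thinned cells had a UMI. General capillary cells held 653 and 1063 CPM (1.63, 1.59 to 1.67), which is the largest Icam2 ratio among the classes, with thinned shares of 69.5% and 83.1%. Venous cells held 488 and 641 CPM (1.31), arterial cells 633 and 620 CPM (0.979), and lymphatic cells 200.4 and 231 CPM (1.15). Icam2 thus did not differ over the whole while 4 of 5 classes were higher in aKO, and with the classes weighted equally its log2 ratio was 0.24. Lymphatic cells, which held the least, made up 3.41% of aWT and 15.9% of aKO endothelial cells. Aerocytes, which held the most, made up 15.1% and 10.4%. Cells of no class held Icam2 at 637 and 944 CPM (1.48). The part of each of these in the value over all cells was not tested. General capillary and arterial intervals overlapped in aWT, and venous and arterial intervals in aKO. Alveolar type 2-like cells had a UMI in 5.83% and 6.67% of thinned cells.

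Sele and Selp were found mainly in arterial and venous cells in both libraries. Sele stood at 119 CPM (110 to 129) in aWT and 61.5 CPM (56.4 to 66.9) in aKO arterial cells, a ratio of 0.516 (0.459 to 0.580). Venous cells held Sele at 35.2 CPM (30.6 to 40.3) and 37.7 CPM (34.1 to 41.5). The other classes held at most 1.06 CPM. In aWT lymphatic cells Sele had 0 UMIs, which allows up to 1.42 CPM at the upper end of the Poisson interval, and the share of 0 of 103 alveolar type 2-like cells allows up to 3.52%.

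Selp was highest in venous cells, at 177 CPM (167 to 188) in aWT and 189 CPM (181 to 197) in aKO, a ratio of 1.07 (0.990 to 1.15). Arterial cells held 86.7 CPM (79.0 to 95.1) and 107 CPM (100.1 to 114), a ratio of 1.23 (1.10 to 1.38), and no other class was above 2.71 CPM. Thus Sele led in arterial and Selp in venous cells of both libraries. Thinned shares with Selp were 12.9% (10.8 to 15.3) in aWT and 17.9% (15.4 to 20.6) in aKO venous cells, and 10.7% and 14.3% in arterial cells. Thinned shares with Sele were 8.90% and 6.29% in arterial cells and 2.08% and 3.71% in venous cells, with overlapping intervals in both classes. The selectin sums rest on few cells: 1% of venous cells held 81.2% of the Sele UMIs in aWT and 42.8% in aKO, and 34.1% and 27.4% of the Selp UMIs. Among arterial cells, 1% held 36.2% of the Sele UMIs in aWT and 30.3% in aKO. The arterial Sele log2 ratio of -0.90 was -0.54 after thinning, and it kept its sign in all 11 other ways of processing. Selp also moved with depth in aWT venous cells, from 76.3 CPM in cells under 4000 UMIs to 239 CPM in cells over 8000, with 156 CPM between them. In aKO venous cells it was 180 CPM under 4000 UMIs, 95.5 CPM at 4000 to 8000 and 204 CPM in deeper cells, so the library with the higher level differed between depth ranges. Arterial Selp also turned: it was 44.6 CPM in aWT and 63.7 CPM in aKO under 4000 UMIs, and 65.4 and 82.2 CPM at 4000 to 8000, with overlapping intervals. In deeper arterial cells it was 143 CPM (126 to 163) in aWT and 115 CPM (107 to 123) in aKO. The part of depth in the arterial ratio was not tested.

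Over all endothelial cells Sele stood at 15.5 and 21.0 CPM (ratio 1.36, 1.25 to 1.48) and Selp at 31.0 and 54.0 CPM (1.74, 1.65 to 1.84). Within arterial cells Sele was lower in aKO, and with the classes weighted equally the log2 ratio of Sele over all was -0.51 in place of 0.35, and that of Selp 0.15 in place of 0.71. Cells of no class held Sele at 8.83 and 21.1 CPM (ratio 2.39, 1.97 to 2.90), and 34.3% of the aKO Sele UMIs were theirs, against 14.2% in aWT. Arterial and venous cells together made up a larger share of aKO cells, at 8.60% and 8.92% against 6.59% and 6.64% in aWT. The venous Sele log2 ratio of 0.09 was -1.16 when a class had to lead by 4 times. Platelets also hold P-selectin; their 6 markers summed to at most 4.76 CPM in every class of both libraries.

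Cx3cl1 was highest in aerocytes and lower in aKO in aerocyte, arterial and general capillary cells. Aerocytes held 134 CPM (127 to 141) in aWT and 69.2 CPM (62.7 to 76.0) in aKO, a ratio of 0.515 (0.461 to 0.575). Arterial cells held 71.5 CPM (64.4 to 79.1) and 26.6 CPM (23.3 to 30.3), a ratio of 0.373 (0.315 to 0.440), and general capillary cells 37.6 and 17.4 CPM (0.463, 0.383 to 0.557). Venous cells held 17.9 and 16.1 CPM with overlapping intervals (0.899, 0.702 to 1.16), and lymphatic cells 2.70 and 1.59 CPM. The order aerocyte, arterial, general capillary, venous, lymphatic was the same in both libraries, with general capillary and venous intervals overlapping in aKO.

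Among arterial cells Cx3cl1 was the only 1 of the 6 called, beside 3.98% of the 4394 genes there called as lower and 4.21% as higher. Thinned shares with Cx3cl1 were 21.9% (20.1 to 23.8) and 11.3% (9.42 to 13.5) of aerocytes and 14.3% (12.1 to 16.8) and 4.31% (3.05 to 5.90) of arterial cells, against 39.9% and 27.1%, and 28.3% and 18.7%, unthinned. Alveolar type 2-like cells had a UMI in 1.94% of 103 and 6.67% of 15 thinned cells. The aerocyte level was 130 and 72.0 CPM in cells under 4000 UMIs and 125 and 66.6 CPM in cells over 8000. Over all endothelial cells Cx3cl1 stood at 57.3 and 20.8 CPM (ratio 0.363, 0.341 to 0.386). Its log2 ratio of -1.27 over all was -0.89 with the classes weighted equally, which no longer reaches 2-fold.

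**Figure D5:**
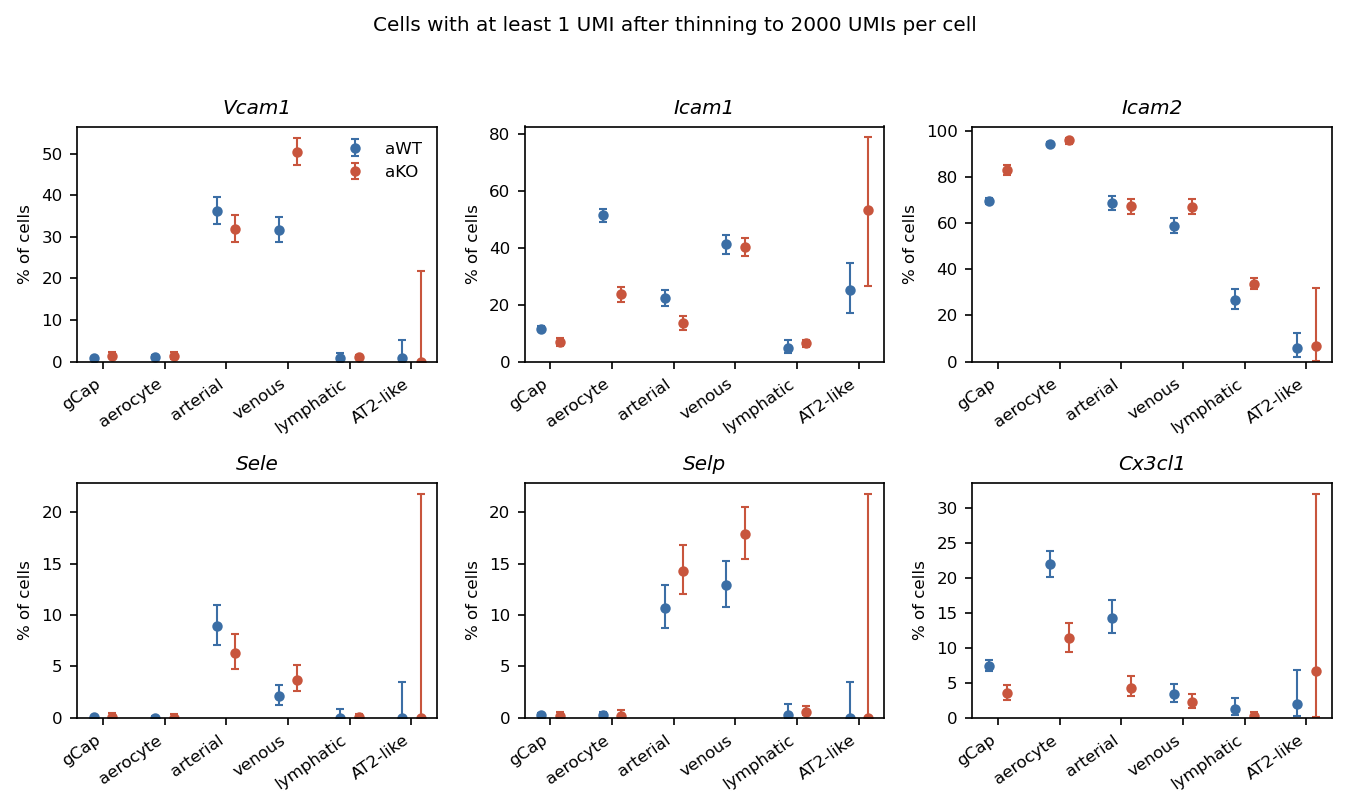
Share of cells (vertical axes, percent) with at least 1 UMI of each gene after thinning to 2000 UMIs per cell, in 5 endothelial classes and in alveolar type 2-like (AT2-like) cells, with aWT in blue, aKO in red and 95% Clopper-Pearson intervals. Venous Vcam1 is 31.7% in aWT and 50.5% in aKO, aerocyte Icam1 51.3% and 23.6%, and aKO AT2-like intervals are wide because 15 cells remained.

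Several of the genes were found in the same thinned cells, given here as a description of cells from 1 library each. In aWT arterial cells 58.2% (46.6 to 69.2) of the 79 cells with Sele also had Vcam1, against 34.1% (30.9 to 37.5) of those without, and 26.6% had Selp, against 9.15%. In aKO arterial cells Vcam1 was in 46.3% of the 54 cells with Sele and in 31.0% of the others, and Selp in 20.4% and 13.9%, with overlapping intervals in both pairs. In aKO venous cells with Vcam1, 47.4% had Icam1, 21.6% Selp and 6.01% Sele, against 32.7%, 14.1% and 1.36% of those without. In aWT venous cells the corresponding shares were 45.0%, 14.9% and 3.46%, against 39.3%, 12.0% and 1.44%, and each pair of intervals overlapped. All of Vcam1, Sele and Selp occurred together in 13 of 888 aWT and 5 of 858 aKO arterial cells, and in 3 of 912 and 8 of 889 venous cells. Icam1 and Cx3cl1, which are both highest in aWT aerocytes, showed little overlap beyond their shares: 23.5% of aWT aerocytes with Icam1 had Cx3cl1, against 20.2% without, and 11.2% against 11.4% in aKO.

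The genes most alike in pattern were found by Pearson correlation of log2(CPM + 5) over the 10 sums of class and library, among 5800 genes. The sums share libraries and depth, so r is a description only. For Vcam1 these were AU021092 (r = 0.979), Mfap5 (0.974), a microfibril protein, and Tma7 (0.971). For Selp they were Ccdc80 (0.985), AU021092 (0.979) and Klhl6 (0.976), and for Sele Myof (0.988), Mgp (0.988), a matrix inhibitor of calcification, and Cytl1 (0.985). For Icam1 they were Golm1 (0.934), Ncam1 (0.928), a neural cell adhesion molecule, and Rcn2 (0.911). Icam2 had Pnpla2 (0.978), a triglyceride lipase, Ick (0.978) and Slc30a1 (0.977), a zinc exporter. Cx3cl1 had Klhl7 (0.979), Tmem47 (0.975) and Mertk (0.952), a receptor for dying cells. The size of a change does not enter r, and some of these genes were nearly level. Over the 10 sums Tma7 ran from 87.3 to 158 CPM, Rcn2 from 64.5 to 98.8 CPM and Klhl7 from 38.9 to 61.3 CPM. AU021092 stood at 227 and 147 CPM in aWT arterial and venous cells and at 141 and 212 CPM in aKO, the same turn of order as Vcam1. Ncam1 did not differ by library as Icam1 did, at 82.1 and 72.4 CPM in aerocytes and 138 and 139 CPM in venous cells.

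Other genes of leukocyte capture were counted from fixed lists at 5 CPM and 1.5-fold over all endothelial cells, where 11.9% of 11154 genes were higher and 6.24% lower in aKO with a median log2 ratio of 0.09. Of the 19 NF-kB and cytokine receptor genes, 4 were higher, 1 was lower and 14 lay within 1.5-fold (median 0.13). Nfkb2, Relb, Nfkbie and Traf1 were the higher ones, and Il4ra, the interleukin 4 receptor, the lower one, at 108 CPM in aWT against 65.6 CPM in aKO. Relb, a subunit of the noncanonical NF-kB arm, stood at 33.2 and 68.4 CPM (log2 ratio 0.94). In venous cells the same 4 were higher and Rel, Il6st and Irf1 were lower (median 0.09), beside 13.2% of genes higher and 8.24% lower there, with Relb at 43.8 and 79.3 CPM and Il6st, the shared receptor of the interleukin 6 family, at 498 and 203 CPM. In aerocytes 1 of 17 measured, Birc3, was higher and 1, Nfkbia, lower, beside 5.85% and 4.51% of genes. Of 7 immediate early genes, which cell dissociation can induce, 1 was lower over all endothelial cells and 0 higher (median 0.03). Within classes, 5 of 7 were lower in venous cells (median -0.74) and 4 of 7 in aerocytes (-0.66). The part of these genes in the Icam1, Vcam1 and Cx3cl1 differences was not tested.

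Of the 19 junction and other adhesion genes, 14 were measured, 4 were higher and 0 lower (median 0.11). Cd34, a sialomucin, stood at 174 CPM in aWT against 529 CPM in aKO (log2 ratio 1.58). Its largest class ratio was in general capillary cells, at 88.4 and 708 CPM (2.93). It was also higher in aerocyte (569.6 and 1348 CPM), arterial (103 and 465 CPM) and venous cells (104 and 429 CPM), and stood at 22.4 and 33.0 CPM in lymphatic cells. F11r, which encodes the junctional protein JAM-A, stood at 137 and 364 CPM (1.38) and Jam2 at 137 and 266 CPM (0.93). Nectin2 stood at 15.8 and 84.5 CPM (2.11), beside the larger share of lymphatic cells in aKO. It was highest in lymphatic cells, at 225 and 349 CPM (log2 ratio 0.62). Its largest log2 ratio within a class was 1.39, in venous cells. Jam2 differed in arterial cells, at 288 and 669 CPM, and hardly in venous cells, at 387 and 356 CPM.

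Of the 10 Weibel-Palade genes 9 were measured, with Cd63 higher and Vwf lower (median 0.18). Vwf, which encodes von Willebrand factor, stood at 3844 CPM in aWT against 2070 CPM in aKO venous cells and at 2399 and 727 CPM in arterial cells, while its granule partner Selp had ratios of 1.07 and 1.23 there. Cd63, a tetraspanin of the granule membrane, stood at 64.5 and 116 CPM in venous and 152 and 262 CPM in arterial cells. Of 16 chemokine and cytokine genes 8 were measured, 3 higher and 1 lower (median 0.18). Cxcl12, a lymphocyte and stem cell attractant, stood at 1251 and 190 CPM in arterial cells, the class in which Cx3cl1 had its lowest ratio. Ccl21a, a lymphatic marker with near-identical copies, had a log2 ratio of 2.19 over all endothelial cells, beside the larger share of lymphatic cells in aKO.

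Adam10 and Adam17, the proteases that cut fractalkine, VCAM-1 and other of these proteins from the surface, lay within 1.5-fold over all endothelial cells, at 179 and 245 CPM and at 74.8 and 58.5 CPM. Of 10 leukocyte partner genes 4 were measured and 3, Itgb7, Cx3cr1 and Cd44, were lower in aKO (median -0.68). Cd44 stood at 163 and 58.0 CPM in arterial cells, and Itgb1, the measured partner within 1.5-fold, at 725 and 849.6 CPM over all endothelial cells. The 9 leukocyte markers summed to at most 43.2 CPM in any class, and to 20.6 and 2.06 CPM in arterial cells. In aWT that sum was mostly Lyz2, at 24.1 CPM over all endothelial cells, and in aKO lymphatic cells mostly Fcer1g.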

How the data were processed

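The members and the gene lists were chosen with earlier results of these data known. The authors deposited raw UMI counts, 1 whole number for each gene in each barcode. The submitters' processing notes name Cell Ranger 7.2.0 and the build mm10, and the labels' protocols name the 3' v3 chemistry. Its annotation and the handling of intronic reads were not given in the sources used here. Symbols with more than 1 identifier (38) were kept apart by identifier.

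Kept barcodes had 500 genes or more and 15% mitochondrial UMIs or fewer, and Scrublet (scanpy 1.11.5), run per library with 1 score limit of 0.2 in both because its automatic limit called 0 aWT barcodes, removed 718 aWT (4.59%) and 399 aKO barcodes (3.70%). Endothelial cells held at least 3 of 12 endothelial markers and a larger share of that list than of each other cell type's list. Each class marker was divided by its 98th percentile, capped and averaged over its list. A cell took the class with the highest score if it was at least 2 times the next and 3 markers were detected. How markers were scored was set after the data had been seen.

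UMIs were summed per class and library. Log2 ratios add 5 CPM, which understates the change of low genes. CPM have exact Poisson, ratios exact conditional binomial and shares Clopper-Pearson intervals, all at 95%. Thinning to 2000 UMIs left out 2242 aWT and 1367 aKO endothelial cells. Genes named are the 6 members, the 3 genes most alike to each, up to 4 genes per list with the largest ratio at 50 CPM, and markers; Nfkb2, Nfkbie, Traf1, Rel, Irf1, Nfkbia, Itgb7 and Cx3cr1 are named as the genes behind a small count. Alternatives were TMM factors (edgeR 4.0.16), another pseudocount, cell filter, margin and minimum CPM, the mean over cells, thinning, doublet calls kept, cells with UMIs of other types left out, and other class weights. A margin of 1.5, and leaving out cells with proliferation or with mesothelial and fibroblast markers, were chosen after seeing the data. Scripts ran in Python 3.11.15 with numpy 2.4.6 and scipy 1.17.1.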

Additional observations from a re-analysis of the deposited data

Results flagged for a closer look

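Icam1 went opposite ways between classes of the same 2 libraries. Its aKO over aWT ratio was 1.54 (1.20 to 2.00) in lymphatic cells, against 0.557 in general capillary, 0.425 in aerocyte and 0.561 in arterial cells, and the difference between classes was not tested. The lymphatic level was low, at 27.4 CPM in aWT against 42.1 CPM in aKO, and in aKO 1% of the lymphatic cells held 35.5% of the Icam1 UMIs, with 76 in 1 cell. Thinned shares of lymphatic cells with a UMI were 4.93% (3.03 to 7.51) in aWT and 6.36% (5.19 to 7.71) in aKO, with overlapping intervals.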

How the results depend on the processing

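Over all endothelial cells the log2 ratios were 1.60 for Vcam1, -0.61 for Icam1, -0.02 for Icam2, 0.35 for Sele, 0.71 for Selp and -1.27 for Cx3cl1, and 211 genes were called higher and 151 lower. With the 5 classes weighted equally they were 0.94, -0.56, 0.24, -0.51, 0.15 and -0.89, and 78 and 97 genes were called. Without cells of no class and lymphatic cells they were 2.15, -0.23, 0.077, 0.51, 1.26 and -0.98. As a mean over cells Vcam1 was 1.30, Icam1 -0.79, Icam2 0.14, Sele 0.19 and Selp 0.43. Thinned to 2000 UMIs, Vcam1 was 1.34, Icam1 -0.76, Icam2 0.082 and Selp 0.51. Without cells with proliferation markers Vcam1 was 1.38, Icam1 -0.71 and Icam2 0.0057. Without cells holding a UMI of other cell types, which left 6316 of 14664 aWT and 8216 of 10270 aKO cells, Icam1 was -0.71 and Icam2 0.058. A pseudocount of 1 CPM gave 1.64 for Vcam1 and -1.42 for Cx3cl1, TMM factors gave -0.057 for Icam2, and doublet calls kept gave 1.54 for Vcam1. At 20 CPM 361 genes were called higher. For these values the cause of the change was not tested, apart from the class weights, which change the share of each class by construction. Aerocyte Vcam1 ran from 0.36 to 2.23 over 11 settings, and Icam2 over all cells changed sign around 0 in 6 of 11. No paired analysis was possible because each group holds 1 library. With 1 library a group, the spread between animals is unknown. Depth limits Sele and the capillary and lymphatic values of Vcam1 and Selp, which rest on few UMIs.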
